A study of Mus musculus with 4 samples.

Results

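Chitinase-like and resistin-like proteins are secreted products of M2 macrophages, and 6 of their genes were followed across the 4 arrays of the series. The members were Chi3l1, Chi3l3 (Ym1), Chi3l4 (Ym2), Retnla (Fizz1, also called RELMα), Retnlb and Retnlg, taken by their names in the array annotation. They were 6 of 23213 named genes, and each was read by 1 probe (6 of 55681 non-control probes) that was spotted once per array. RefSeq now lists Chi3l1, Chi3l3 and Chi3l4 as Chil1, Chil3 and Chil4.

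Chitinase-like proteins share the fold of chitinases and bind chitin or related sugars, but have lost the ability to cut them. Resistin-like molecules are small, cysteine-rich proteins secreted by myeloid cells and mucosal epithelium, and RELMα is among the most used markers of macrophages activated by IL-4 or IL-13. IL-4 acts through the kinases bound to its receptor and the transcription factor STAT6, while Lamtor1 belongs to the Ragulator, the lysosomal complex that recruits the kinase mTORC1 in response to amino acids.

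All cells were bone marrow-derived macrophages (BMDMs) of C57BL/6J mice aged 10 weeks, grown for 6 days in medium with L929 cell supernatant, a source of M-CSF, and then stimulated for 2 days. Wild-type M2 BMDMs received IL-4 at 50 ng per ml, and wild-type M1 BMDMs received IFN-γ at 20 ng per ml with LPS at 100 ng per ml. Torin1-treated BMDMs were wild-type and received IL-4 at 50 ng per ml together with Torin1, an ATP-competitive inhibitor of mTOR, at 250 nM. Lamtor1-deficient BMDMs received IL-4 at 50 ng per ml, and their genotype is written p18 (2400001E08Rik) -/- in the labels. The methods describe a conditional line, Lamtor1 flox/flox with heterozygous LysM-Cre, in which Cre is driven by a myeloid promoter, so that the gene is lost as cells enter the myeloid lineage and not before. The study's definition of wild-type BMDMs is cells of Lamtor1 flox/flox mice without Cre, while the labels and the array methods say wild type only. No unstimulated BMDMs were hybridized, so the arrays compare IL-4 with IFN-γ plus LPS and hold no measure of induction from rest.

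Each condition was measured on 1 array, so no difference could be set against the spread of replicates and none was tested. The 3 comparisons with wild-type M2 BMDMs share that array. Of the probes, 28339 to 30857 were well above background per array, the 75th percentile of the signal lay between 287 and 595, and no spot was saturated. The technical SD of a log2 ratio, from probes spotted at least 8 times, was 0.088 to 0.100 for probes well above background and 0.28 to 0.45 for the others. It covers spotting and scanning only, not cultures or mice. The probe of 2400001E08Rik, the annotation's name for Lamtor1, gave normalized signals of 66.3 in wild-type M2, 51.2 in M1 and 1.55 in Lamtor1-deficient BMDMs, and was 1.13-fold above wild-type M2 with Torin1. It thus stood 42.7-fold lower under the label that names its loss. All 8 macrophage markers searched, among them Csf1r and Cd68, were well above background on every array. At 2-fold and by the brightest probe of each gene, 3 of them were lower without Lamtor1, namely Fcgr1 (31.1-fold), Emr1 (5.95-fold) and Cd14 (3.62-fold). By the same reading, 2 were lower with Torin1, namely Fcgr1 (24.4-fold) and Emr1 (7.02-fold). The median log2 ratio of the 8 was -0.63 without Lamtor1 and 0.06 with Torin1. With the mean over all probes of a gene it was -1.40 and -0.71, so the choice of probe mattered. The part of these shifts in the members' levels was not tested.

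The regions before the transcript starts are shown because IL-4 is known to act on such regions through STAT6, so that their letters can be read beside the levels. The 250 bases before the start of 5 of the 6 genes were taken from RefSeq (GRCm38.p6) and searched on both strands for 3 motifs. These were TTC and GAA with 4 bases between them, the spacing that STAT6 favours, TTGCNNAA for C/EBP factors and GAGGAA for PU.1. Capitals mark the matches, each sequence is written 5′ to 3′ on the gene's strand, and its last base lies next to the transcript start. The Retnla window is chr16:48842359-48842608 (plus strand) and the Retnlg window is chr16:48872358-48872607 (plus strand).
Retnla: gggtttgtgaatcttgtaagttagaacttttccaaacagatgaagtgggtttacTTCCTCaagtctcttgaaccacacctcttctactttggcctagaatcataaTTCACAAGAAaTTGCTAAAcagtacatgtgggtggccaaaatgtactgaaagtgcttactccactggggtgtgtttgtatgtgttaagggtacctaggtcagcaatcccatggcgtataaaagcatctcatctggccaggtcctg
Retnlg: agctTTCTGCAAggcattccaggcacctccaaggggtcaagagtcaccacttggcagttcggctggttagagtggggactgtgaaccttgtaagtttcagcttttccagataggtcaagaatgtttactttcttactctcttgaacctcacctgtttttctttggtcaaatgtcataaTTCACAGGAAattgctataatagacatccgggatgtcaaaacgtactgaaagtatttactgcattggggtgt
The Chi3l3 window is chr3:106167565-106167814 (minus strand) and the Chi3l4 window is chr3:106219480-106219729 (minus strand).
Chi3l3: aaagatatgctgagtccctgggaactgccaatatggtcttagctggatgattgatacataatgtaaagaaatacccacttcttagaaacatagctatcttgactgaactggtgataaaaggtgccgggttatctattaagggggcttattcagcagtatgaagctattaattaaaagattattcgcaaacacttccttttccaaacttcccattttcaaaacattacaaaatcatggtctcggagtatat
Chi3l4: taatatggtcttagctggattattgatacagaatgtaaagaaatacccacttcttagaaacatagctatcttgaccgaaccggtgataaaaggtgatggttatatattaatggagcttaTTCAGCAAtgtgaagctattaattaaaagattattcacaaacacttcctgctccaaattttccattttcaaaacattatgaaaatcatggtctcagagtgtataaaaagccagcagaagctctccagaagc

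Retnla held TTCACAAGAA from 145 to 136 bases before the start, followed after 1 base by TTGCTAAA. A match to GAGGAA lay on its other strand from 196 to 191 bases before the start. Retnlg held TTCACAGGAA, the same STAT6 spacing, from 72 to 63 bases before its start, and a C/EBP match on the other strand from 246 to 239. In Retnlg the bases after the STAT match read attgctat, which misses the C/EBP letters. Chi3l4 held a C/EBP match on the other strand from 131 to 124 bases before its start, and no match to the other motifs. The windows of Chi3l3 and of Chi3l1 (chr1:134181906-134182155, plus strand) held none of the 3 motifs, and no match overlapped another. Of 32851 RefSeq promoter windows of the same length, 5.85% held the STAT6 spacing, 9.56% TTGCNNAA and 23.3% GAGGAA. A match is a description of the letters and no evidence of binding.

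**Figure D1:**
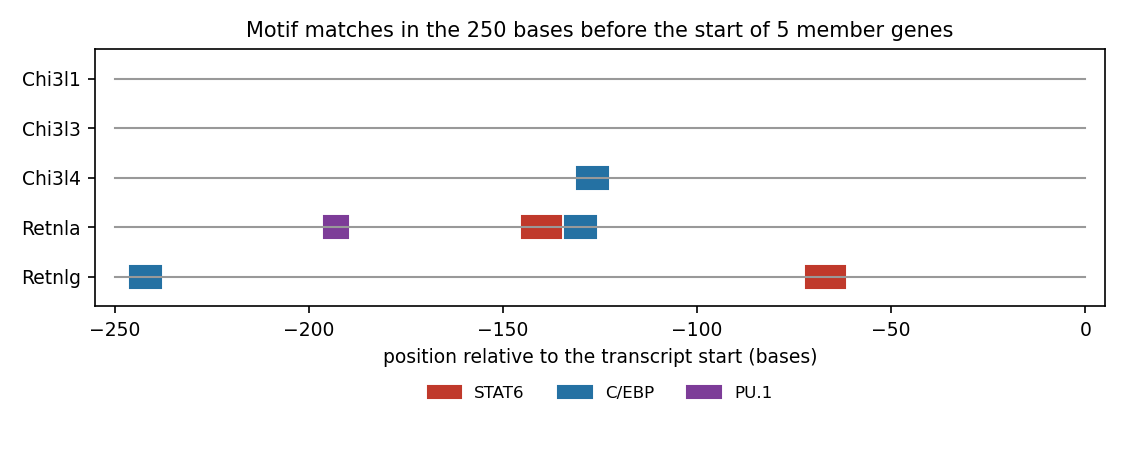
Matches to 3 motifs in the 250 bases before the transcript start of 5 member genes. The x axis gives the position relative to the start in bases, and each box is 1 match on either strand. Retnla and Retnlg hold the STAT6 spacing, Chi3l4 holds a C/EBP match, and Chi3l1 and Chi3l3 hold no match.

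The aligned windows of Chi3l3 and Chi3l4 were identical in 201 of 223 columns (90.1%), and those of Retnla and Retnlg in 135 of 177 columns (76.3%). Chi3l3 and Retnla, which belong to different families, reached 47.8% over 272 columns. The members of each family are neighbours in the genome. Chi3l3 and Chi3l4 lie on chromosome 3 among other chitinase-family genes, and Retnla, Retnlb and Retnlg follow each other on chromosome 16. Chi3l1 lies apart on chromosome 1.

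Levels are given as the processed signal divided by the 75th percentile of the array (normalized signal). They compare arrays for 1 probe and do not rank genes. Whether a probe was well above background was taken from the scanner software's mark for its spot. The lowest signal so marked was 0.036 on the wild-type M2 array, 0.037 without Lamtor1, 0.034 with Torin1 and 0.066 on the M1 array, and some brighter spots were not marked. Where a probe was marked in only 1 of 2 conditions, the fold is a bound, written as "at least", against the higher of that lowest signal and the dim probe's own. Where it was marked in neither, no fold is given. Normexp background correction adds an offset to every signal, and its ratios for dim probes, given beside the bounds, can be smaller than them. RNA was taken from whole cultures, in which fewer cells of a type and less RNA per cell cannot be told apart.

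In M2 BMDMs without Lamtor1, Retnla was 4.51-fold lower, Chi3l4 was 4.24-fold higher and Chi3l3 stayed within 1.17-fold. Under Torin1, Retnla was not well above background, at least 20055-fold below the wild-type M2 level (log2 ratio -11.99 with normexp). Chi3l3 stayed within 1.16-fold there and Chi3l4 was 1.57-fold higher. In M1 BMDMs, 5 of the 6 genes were lower by 2-fold or more, beside 19.3% of all genes, and 3 were with normexp background correction. Retnla was lower by at least 10250-fold (log2 ratio -11.64 with normexp) and Chi3l3 by 4887-fold (log2 ratio -10.59 with normexp). The plots of the normalized signals and of the ratios show these contrasts.

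**Figure D2:**
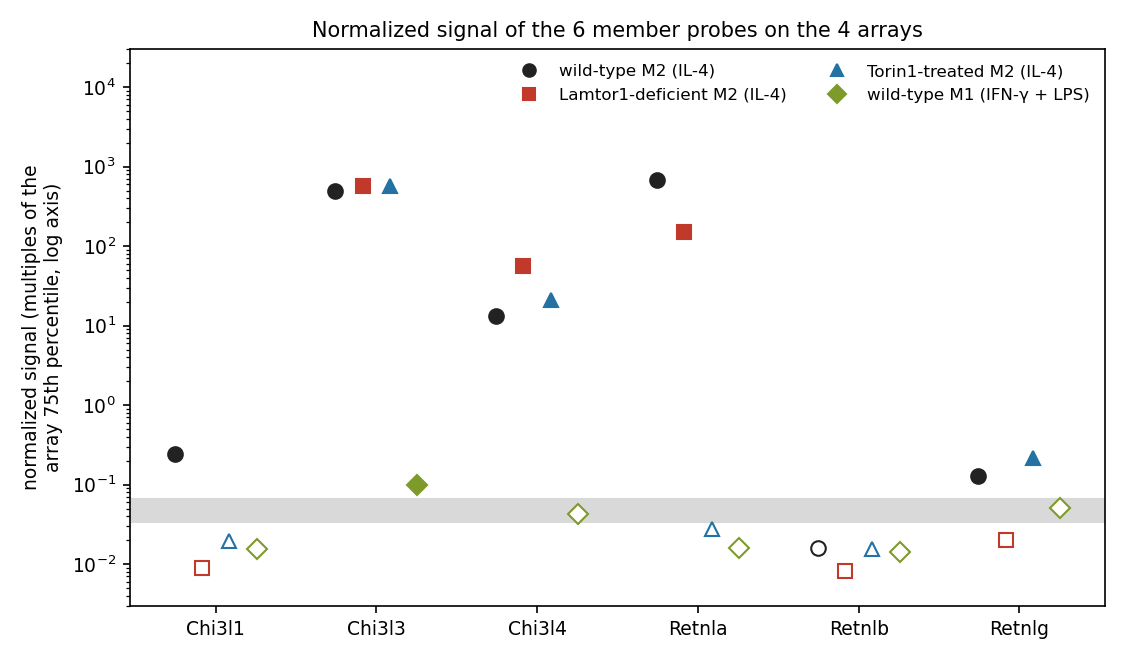
Normalized signal of the 6 member probes on the 4 arrays, as multiples of the array's 75th percentile on a log axis. Each point is 1 array, filled where the probe was well above background and open where it was not, and the grey band spans the lowest normalized signals well above background on the 4 arrays. Chi3l3 lies between 488 and 569 on all 3 arrays with IL-4, whereas Retnla falls from 672 to 149 without Lamtor1 and to 0.028 with Torin1.

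Among the chitinase-like genes, Chi3l3 encodes Ym1, a lectin that forms crystals in inflamed airways and is also a granule protein of neutrophils. Its probe (chr3:105950485-105950544, mm9, minus strand) gave normalized signals of 488 in wild-type M2 BMDMs, 569 in Lamtor1-deficient, 567 in Torin1-treated and 0.100 in M1 BMDMs. All 3 arrays with IL-4 were thus high and close together, and the M1 array was low, though still well above background. The log2 ratio to wild-type M2 was 0.22 without Lamtor1 and 0.22 with Torin1, against technical SDs of 0.088 and 0.093. These small differences had no settled direction, since quantile normalization turned the first to -0.06 and the second to -0.36, and a shift to the array median turned the second to -0.03. Torin1-treated over Lamtor1-deficient BMDMs gave -0.01. The fall in M1 BMDMs left 0.0205% of the M2 level, a log2 ratio of -12.25, or -10.59 with another background correction (normexp with an offset of 50).

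The signal of Chi3l3 was among the brightest, with 45 brighter probes on the wild-type M2 array and a processed signal of 290106. No pixel of its spot was saturated on any array. The brightest probe of the Lamtor1-deficient array reached 432512, above the 305257 of Chi3l3 there. Among the 50 brightest probes of the wild-type M2 array, a set that holds Retnla too, the log2 ratios without Lamtor1 ran from -2.67 to 0.60, with 3 probes lower and 0 higher by 2-fold or more. Whether the signal was compressed at this brightness was not tested.

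Chi3l4 encodes Ym2, a close copy of Ym1 known mainly from airways and stomach. Its probe (chr3:106006584-106006643, mm9, minus strand) gave 13.3 times the 75th percentile on the wild-type M2 array, 56.5 times without Lamtor1, 20.9 times with Torin1 and 0.043 times on the M1 array, where it was not well above background. The Lamtor1-deficient array was the highest, and the M1 array lay far below the others. The log2 ratio was 2.09 without Lamtor1, and it stayed between 1.95 and 2.15 under every alternative scaling and background correction. With Torin1 it was 0.65 (0.41 to 0.77 under the same alternatives), under 2-fold. Against M1 BMDMs, the level in M2 BMDMs was at least 203-fold higher, and the log2 ratio of M1 to M2 was -5.88 with normexp correction. Set directly against each other, Lamtor1-deficient BMDMs had 2.70 times the Chi3l4 signal of Torin1-treated BMDMs.

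Because Chi3l3 and Chi3l4 are close copies, the probes were compared for shared bases. Member probes shared runs of at most 8 bases with each other, and no other probe of the array shared a run of 15 bases with them. Probes at different places of similar RNAs can share no bases, so this search does not show which RNA a probe reads. The probe of Gm6522 ends in the 8 bases, TACTGTTA, that begin the Chi3l4 probe, as 1 of 55681 probes does, which was noticed with the values known and does not show which RNA either probe reads. RefSeq lists Gm6522 as a pseudogene beside Chi3l4, and the array holds a probe for it (chr3:106100673-106100732, mm9, plus strand). The Gm6522 probe gave normalized signals of 221 in wild-type M2 BMDMs, 551 in Lamtor1-deficient, 339 in Torin1-treated and 0.085 in M1 BMDMs. It was thus 2.50-fold higher without Lamtor1, 1.54-fold higher with Torin1 and 2593-fold lower in M1 BMDMs. Whether this probe also reads RNA of Chi3l3 or Chi3l4, or theirs reads RNA of Gm6522, was not tested. Nor was it tested whether the Chi3l3 and Chi3l4 probes read each other's RNA. The levels of the locus are thus uncertain between its copies.

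Chi3l1 encodes a glycoprotein (BRP-39, YKL-40 in humans) released by macrophages, neutrophils and epithelial cells. Its probe (chr1:136086448-136086507, mm9, plus strand) gave a normalized signal of 0.244 in wild-type M2 BMDMs, and values of 0.0089 in Lamtor1-deficient, 0.020 in Torin1-treated and 0.016 in M1 BMDMs that were not well above background. It was thus well above background in wild-type M2 BMDMs alone. Its level there was higher by at least 6.52-fold than in Lamtor1-deficient, at least 7.28-fold than in Torin1-treated and at least 3.72-fold than in M1 BMDMs. With normexp correction, whose offset is large beside such dim signals, the log2 ratios shrank to -1.51, -1.17 and -0.78, the last under 2-fold.

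Among the resistin-like genes, Retnla encodes RELMα. Its probe (chr16:48844447-48844506, mm9, plus strand) gave normalized signals of 672 in wild-type M2 BMDMs, 149 in Lamtor1-deficient, 0.028 in Torin1-treated and 0.016 in M1 BMDMs, the last pair not well above background. The wild-type M2 array was highest, the Lamtor1-deficient array kept 22.2% of its level, and the other arrays were at background. The log2 ratio without Lamtor1 was -2.17, between -2.71 and -2.11 under the alternative scalings and background correction. With Torin1, Retnla was at least 20055-fold below the wild-type M2 level, and normexp correction, which lifts dim signals by its offset, gave a log2 ratio of -11.99. Lamtor1-deficient BMDMs therefore held at least 4447 times the Retnla signal of Torin1-treated BMDMs, whose log2 ratio to them was -9.81 with normexp correction. In wild-type M2 BMDMs the probe was the brightest of all non-control probes (processed signal 399700), with no saturated pixel.

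Retnlg encodes RELMγ, known from bone marrow, neutrophils and spleen. Its probe (chr16:48874468-48874527, mm9, plus strand) gave normalized signals of 0.129 in wild-type M2 and 0.215 in Torin1-treated BMDMs. The values of 0.020 in Lamtor1-deficient and 0.051 in M1 BMDMs were not well above background. Torin1-treated BMDMs were therefore highest, 1.66-fold above wild-type M2 and at least 5.74-fold above Lamtor1-deficient BMDMs. Against wild-type M2 BMDMs, Retnlg was at least 3.45-fold lower without Lamtor1 and at least 1.97-fold lower in M1 BMDMs. These falls rest on dim signals, and with normexp correction the log2 ratios were -0.65 and 0.19, and that of Torin1-treated over Lamtor1-deficient BMDMs was 1.19.

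Retnlb encodes RELMβ, a product of intestinal goblet cells. Its probe (chr16:48818874-48818933, mm9, plus strand) gave normalized signals of 0.016, 0.0081, 0.015 and 0.014 in wild-type M2, Lamtor1-deficient, Torin1-treated and M1 BMDMs, and was well above background on none. Its level was not measurable on these arrays.

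**Figure D3:**
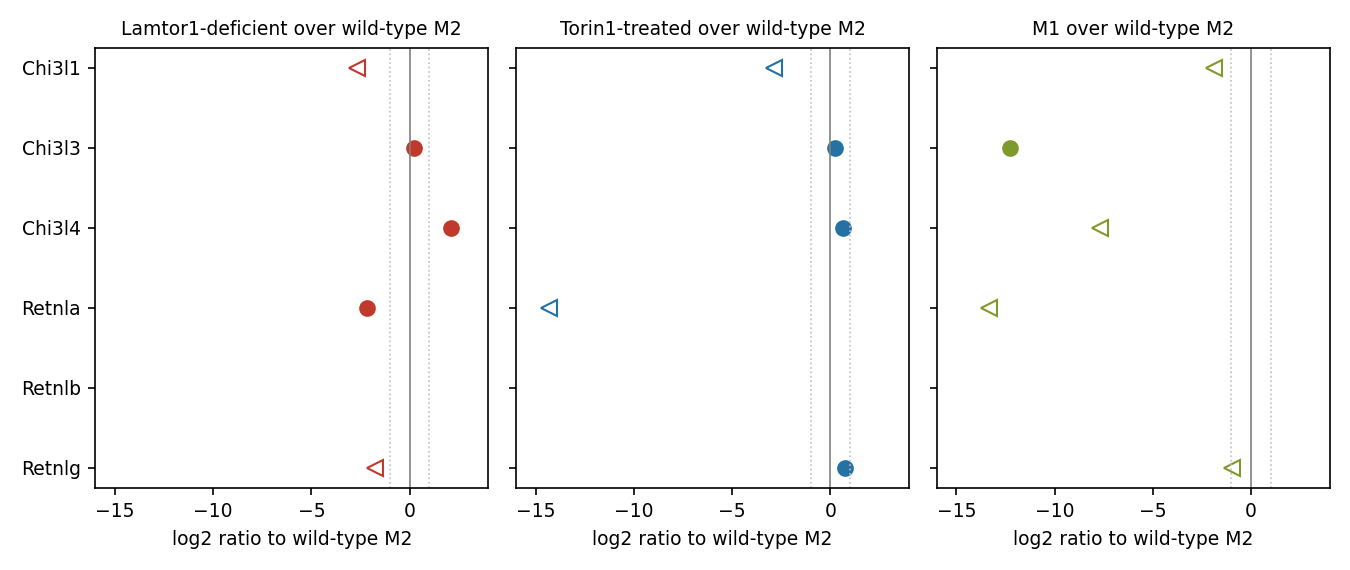
Log2 ratios of the member genes to wild-type M2 BMDMs in 3 comparisons. Filled circles are ratios measured on both arrays, open triangles are bounds that point away from 0, dotted lines mark 2-fold, and Retnlb has no point because it was not well above background anywhere. Without Lamtor1 the members lie on both sides of 0, and with Torin1 Retnla alone passes a log2 ratio of -14.

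Counted at 2-fold, 3 of the 6 members were lower without Lamtor1 (Chi3l1, Retnla and Retnlg), beside 8.67% of all 23213 genes, and 1 was higher (Chi3l4), beside 8.87%. Under Torin1, 2 were lower (Chi3l1 and Retnla), beside 11.8% of all genes, and 0 were higher, beside 14.3%. In M1 BMDMs, 5 were lower, all but Retnlb, beside 19.3%, and 0 were higher, beside 30.5%. Of the 6, 5 were well above background in wild-type M2 BMDMs, and Retnlg counted as lower in M1 BMDMs by its measured log2 ratio of -1.34, while its bound was 1.97-fold. With normexp correction Retnlg was under 2-fold without Lamtor1 as well (log2 ratio -0.65). The median of all genes was a log2 ratio of 0.04 without Lamtor1, -0.05 with Torin1 and 0.74 in M1 BMDMs, and a shift to the array median moved the last pair to -0.30 and -0.08. The median of the 6 members was -1.57, 0.09 and -6.12, but the first pair each average in Retnlb, whose level was not measurable, and the last averages ratios to signals not well above background. With normexp correction these medians were -0.33, 0.18 and -3.33, and the sign with Torin1 was not settled, since a shift to the array median gave -0.16. Of all genes called, 54.8% were higher with Torin1 and 61.3% in M1 BMDMs, against 38.8% and 32.8% with that shift. A set of 6 genes at 2 chromosomal clusters and 1 further site does not give 6 independent readings.

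The other genes that IL-4 is known to raise in macrophages give the members their context. Of 19 listed, 18 were on the array. Without Lamtor1, 9 were lower and 4 were higher by 2-fold or more. The median log2 ratio was -1.02 over all 18, which takes in Alox15 and Cd209a, not well above background on any array, and -0.36 with the mean over all probes of a gene. Ear11, a ribonuclease gene, was 20.8-fold lower and the fusion receptor gene Tm7sf4 9.44-fold lower. The chemokine genes Ccl22 and Ccl17 were at least 39.3-fold and 6.10-fold higher. With Torin1, 10 were lower and 0 were higher (median -1.50, or -0.94 with the mean over probes), among them Ear11 (195-fold), Ccl24 (115-fold), the lectin gene Clec10a (97.7-fold) and Tm7sf4 (20.2-fold). Retnla was thus among the genes that were lower in both comparisons. Chi3l3 and Chi3l4 were not lower by 2-fold in either, and other genes of the list were like them in this, such as Clec7a (log2 ratios 1.03 and 0.24), Atp6v0d2 (0.99 and 0.96), Tgm2 (0.68 and 0.68) and Ch25h (1.27 and -0.11). In M1 BMDMs Clec7a and Atp6v0d2 were lower than in wild-type M2 (17.5-fold and 44.1-fold), like Chi3l3 and Chi3l4. Tgm2 and Ch25h, however, were higher there (3.86-fold and 8.57-fold).

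Of 18 genes of the IL-4 receptor and STAT6 pathway, all were measured. Stat6 itself changed by 0.06 without Lamtor1 and 0.08 with Torin1 (log2). Without Lamtor1, Cebpd was 2.28-fold lower and the receptor chain gene Il13ra1 was 4.52-fold higher, and no other gene of the list passed 2-fold. With Torin1, 5 were lower, namely Klf4 (16.9-fold), Socs1 (4.44-fold), Cebpd (4.26-fold), Il4ra (3.33-fold) and Irf4 (3.15-fold). Cebpb, whose product binds the C/EBP motif, was 2.54-fold higher with Torin1, and Irs2, an adaptor of the receptor, was 2.23-fold higher. The part of these changes in the levels of the members was not tested.

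**Figure D4:**
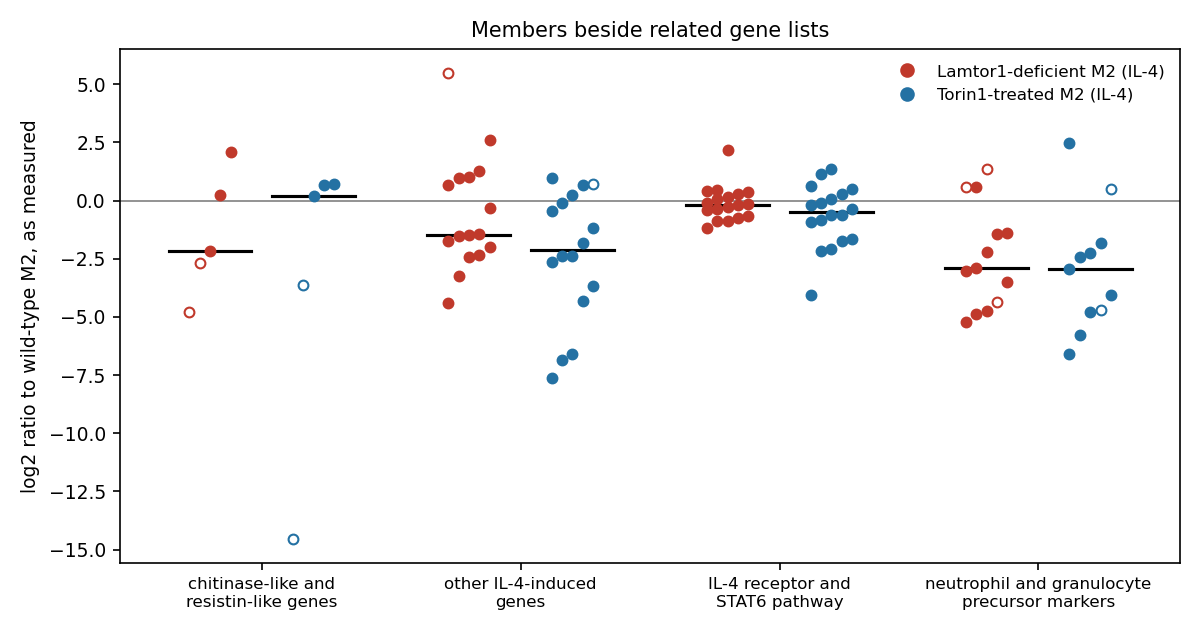
Log2 ratios to wild-type M2 BMDMs, as measured, for genes well above background on at least 1 of the 2 arrays compared. Points are genes, open where 1 of the arrays was not well above background, and bars are medians of the plotted genes. Without Lamtor1 and with Torin1, the plotted medians are -1.46 and -2.12 for the other IL-4-induced genes, -0.17 and -0.49 for the receptor and STAT6 pathway and -2.90 and -2.93 for the neutrophil markers.

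Chi3l3, Chi3l1 and Retnlg are also products of neutrophils and their precursors, so 14 markers of these cells were read, of which 13 were on the array. Without Lamtor1, 10 were lower (median log2 ratio -2.90) and 1, Cxcr2, was higher by its measured log2 ratio of 1.34, with a bound of at least 1.42-fold. With Torin1, 9 of the 12 measured were lower (median -2.68) and 1 was higher, leaving aside Cxcr2, which was well above background on neither array. Elane had no value on the Torin1 array, where its spot was marked as an outlier, so the sums below leave it out. Its normalized signal was 12.4 on the wild-type M2 array and rose to 18.6 without Lamtor1 (log2 ratio 0.58). That value alone exceeded the sum of the other markers on the same array (7.16). On the M1 array Elane reached 52.1. The summed normalized signal of the 12 genes measured on all arrays was 96.5 in wild-type M2 BMDMs, 7.16 in Lamtor1-deficient, 13.0 in Torin1-treated and 336 in M1 BMDMs. A few probes made up most of each sum, such as S100a9 in wild-type M2 BMDMs (65.3), Mmp8 with Torin1 (6.52) and Lcn2, which LPS is known to induce, in M1 BMDMs (329). S100a9 was 26.6-fold lower without Lamtor1 and 27.2-fold lower with Torin1. Ltf, a granule protein gene, was 37.0-fold and 96.3-fold lower. In M1 BMDMs, Chi3l1, Chi3l3 and Retnlg were lower too by their measured ratios. With normexp correction the log2 ratios of Chi3l1 (-0.78) and Retnlg (0.19) were not 2-fold lower. Of the 13 markers, 7 were lower in M1 BMDMs and 2 were higher (Lcn2 and Elane). S100a9 was 47.4-fold lower there, Ngp at least 41.7-fold and Ltf at least 76.8-fold. Without Lamtor1 and with Torin1, Chi3l1 was lower by at least 6.52-fold and 7.28-fold, the log2 ratios of Chi3l3 were 0.22 and 0.22, and Retnlg was at least 3.45-fold lower without Lamtor1 and 1.66-fold higher with Torin1. Of the markers, Mmp8 alone was well above background and higher by 2-fold with Torin1 (5.55-fold, and 8.12-fold lower without Lamtor1), against 9 that were lower. The part of neutrophil-lineage cells in the levels of Chi3l1, Chi3l3 and Retnlg was not tested.

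Markers of other cells were read in the same way. Among 5 eosinophil markers, 1 was lower without Lamtor1 (Ccr3, at least 66.8-fold) and 1 was higher (Siglec5, the annotation's name for the SiglecF gene, log2 ratio 1.93), and Epx was not well above background on any array. With Torin1, 2 were lower (Ccr3, 29.9-fold, and Prg2, at least 2.63-fold) and 1 was higher (Il5ra, at least 3.54-fold). Of 5 mast cell and basophil markers, Mcpt8 and Cpa3 were well above background in wild-type M2 BMDMs and not without Lamtor1, where they were lower by at least 1.76-fold and 1.79-fold. With Torin1 they were lower by at least 1.96-fold and 2.00-fold, and Gata2 was at least 3.08-fold higher. Of 5 epithelial markers, Cdh1 alone was well above background in wild-type M2 BMDMs, and it was 5.41-fold lower without Lamtor1 and 1.94-fold lower with Torin1. Their part in the members' levels was not tested.

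Other members of both families were read by the same rule. Of 7 further chitinase-family genes, 5 were on the array. Chia, Chid1 and Ctbs, which encode active or lysosomal enzymes of the family and a related protein, changed by less than 2-fold without Lamtor1 and with Torin1. Chit1 was not well above background on any array. Ovgp1, an oviduct glycoprotein gene, was at least 1.38-fold lower without Lamtor1 and 3.21-fold higher with Torin1. Resistin itself (Retn, on chromosome 8) was at least 65.8-fold lower without Lamtor1 and 35.0-fold lower with Torin1 by the brighter of its probes, whose normalized signals were 2.54 in wild-type M2 BMDMs, 0.039 in Lamtor1-deficient, 0.073 in Torin1-treated and 0.818 in M1 BMDMs. Its other probe disagreed in direction, with 0.035 in wild-type M2 BMDMs, not well above background, 0.050 without Lamtor1, 0.071 with Torin1 and 0.887 in M1 BMDMs. By that probe Retn was higher in all 3 comparisons, by at least 1.38-fold, 1.97-fold and 24.4-fold, so its direction was not settled.

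Partners to which these proteins are reported to bind were listed as 8 genes, of which 6 were well above background in wild-type M2 BMDMs. None passed 2-fold without Lamtor1, though Tlr4 (log2 ratio -0.999) and Il13ra2 (0.98) lay at the threshold. With Torin1, Il13ra2, a receptor gene for IL-13 and Chi3l1, was 3.64-fold lower and Tlr4 was 2.99-fold lower. Lgals3 changed by 0.38 and 0.51 (log2).

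For a member well above background on at least 3 arrays, the 5 named genes nearest in their log2 ratios to wild-type M2 BMDMs were sought by Euclidean distance. Chi3l3 was nearest to Gm6522 (distance 1.48 over 3 ratios), followed at some distance by ND3 (3.83), Egr2 (4.16), Mmp12 (4.94) and Mrc1 (5.24), of 12816 candidates. All of these were much lower in M1 BMDMs, at log2 ratios from -7.52 for Mmp12 to -11.34 for Gm6522. The distance took in the M1 ratio, so this shared fall follows from how the genes were chosen. Chi3l4 was nearest to Svip (0.12), Dusp18, Gchfr, Klhl1 and Xrcc5 (0.37) over 2 ratios and 832 candidates, all of them dim. Chi3l1, Retnla, Retnlb and Retnlg passed on fewer arrays and were not matched.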

How the data were processed

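RNA of 4 BMDM cultures was read on 1-colour Agilent 8 × 60 K mouse arrays. The authors deposited spot intensities from Agilent Feature Extraction, whose processed signal is background-subtracted and detrended within the array and is not normalized between arrays. The file headers name version 10.7.3.1 and the submitters' processing notes 10.5.1.1. The deposited series-wide table repeats these intensity values to within 0.497%.

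Following the study's methods, signals below 1 were set to 1 and divided by the 75th percentile of the array, and log2 was taken. Control and outlier spots were left out, and spots of 1 probe were averaged. A gene was read by its brightest probe. RefSeq names matched 21768 of 23213 genes, and probe coordinates (mm9) are those of the files. The exon or UTR that each probe lies in was not determined. The members and gene lists were chosen with earlier results of these data known. All members were named. Some listed items are not reported here. From the lists, up to 4 genes past 2-fold per comparison were named, with others where a result needed them. Lists of 7 lymphocyte and 5 fibroblast markers were also read.

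Alternatives were a shift to the median, quantile normalization, a percentile over probes well above background, normexp correction (limma 3.58.1, R 4.3.3, offset 50), a floor or filters on dim probes, outlier spots kept, the series table, a 3-fold threshold and the mean over probes. The procedure was tested on simulated data. Calculations used Python 3.11.15 with NumPy 2.4.6 and pandas 2.3.3.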

Additional observations from a re-analysis of the deposited data

Results flagged for a closer look

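Retnlg stood out because its log2 ratio to wild-type M2 BMDMs was -2.66 without Lamtor1 and 0.74 with Torin1, in opposite directions. Each value rests on 1 array, both share the wild-type M2 array, and the difference was not tested. The first value is a ratio to a signal not well above background, so the fold is a bound. With normexp correction the log2 ratio of Torin1-treated over Lamtor1-deficient BMDMs was 1.19.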

How the results depend on the processing

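No paired analysis was possible because each condition had 1 array, and leaving out a replicate could not be run for the same reason. The member counts kept within 1.5 times of their values in every alternative except these. With only probes well above background on both arrays, the members lower by 2-fold were 1 of 3 measured without Lamtor1, 0 of 3 with Torin1 and 1 of 1 in M1 BMDMs, since this filter removes every member that fell to background. With normexp correction, 3 members were lower in M1 BMDMs in place of 5. Within the limit of 1.5 times, the members lower by 2-fold still ranged from 2 to 4 without Lamtor1 and reached 6 in M1 BMDMs. Normexp correction turned the M1 ratio of Retnlg to 0.19. For gene lists, the median without Lamtor1 became 0.22 for the members with probes well above background on both arrays, and 0.041 for mast cell and basophil markers with a floor. In M1 BMDMs it became -3.08 for epithelial markers well above background on at least 1 array, and 1.51 for resistin with the mean over its probes. The small ratios of Chi3l3, given with its values, changed sign with scaling. Ratios to a signal not well above background are bounds only, which holds for Chi3l1 in all 3 comparisons, Retnla with Torin1 and in M1 BMDMs, Retnlg without Lamtor1 and in M1 BMDMs, and Chi3l4 in M1 BMDMs.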

Other observations

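Protein-coding genes within 3 places of the member clusters were read as well. Beside the resistin-like cluster on chromosome 16, Myh15 alone was well above background, in wild-type M2 BMDMs only (processed signal 76.0). Dppa2, Morc1, Trat1, Dzip3 and Cip2a were not well above background on any array. Beside the chitinase-like cluster on chromosome 3, Dennd2d had a log2 ratio of 1.45 without Lamtor1, the same direction as Chi3l4 (2.09), and -0.01 with Torin1. Cept1 changed by 0.55 and 0.31 there. Beside Chi3l1, Btg2 had log2 ratios of -2.42 without Lamtor1 and -0.51 with Torin1, and Fmod of -0.05 and -0.57. Of 5 fibroblast markers, 2 were higher without Lamtor1 (Dcn, 3.77-fold, and Pdgfra, 2.74-fold) and 3 were lower with Torin1, among them Col3a1 (7.43-fold). Of 7 lymphocyte markers, 2 were higher and 2 lower without Lamtor1, and 1 of the 6 measured was lower with Torin1.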
